A study of Mus musculus with 9 samples.

Results

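Border-associated macrophages are the resident macrophages of the meninges, the perivascular spaces and the choroid plexus, and 10 of their marker genes are described here in myeloid cells sorted from mouse brain: Mrc1, Cd163, Lyve1, Cbr2, Pf4, F13a1, Stab1, Folr2, Dab2 and Siglec1. Each gene was read from the array probe set annotated to it alone, taking the brightest where there was more than 1. All 10 were found among 19938 genes with such a probe set, and all 10 passed the filter on dim signal, which left 10795 genes for testing. Only Dab2 had a second probe set of its own, at a mean of 2.86 on the log2 scale against 9.30 for the one used.

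The cells came from 9 mice aged 8.5 months, sorted as CD45+ CD11b+ after saline perfusion and tissue dissociation. Every mouse carried the 5XFAD transgenes of an Alzheimer's disease model with amyloid plaques, on a background without its own TREM2, a microglial surface receptor for lipids. Of these, 3 mice expressed the R47H variant of human TREM2 (R47H), 3 its common variant (CV), and 3 no human TREM2 (KO). Mouse 1 of each genotype was female, and mice 2 and 3 were male. The labels do not say which promoter drives the human gene. The sort keeps any CD45+ CD11b+ cell, so border macrophages, microglia and blood myeloid cells could all contribute RNA.

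Border macrophages take up material from blood, cerebrospinal fluid and the spaces around vessels, and much of their marker set serves uptake. Mrc1 is the mannose receptor, Cd163 takes up haemoglobin bound to haptoglobin, Stab1 clears modified lipoproteins and dying cells, Lyve1 binds hyaluronan, Folr2 binds folate, and Siglec1 binds sialic acid. Dab2 is a clathrin adaptor for receptors of the low-density lipoprotein receptor family, Cbr2 is a carbonyl reductase, Pf4 is a chemokine, and F13a1 is the catalytic subunit of coagulation factor XIII. None of them belongs to border macrophages alone: Pf4 and F13a1 are also platelet genes, Lyve1 and Stab1 are also made by lymphatic endothelium, and Siglec1 responds to interferon.

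The sequences before the start sites of 3 members are shown because the results turn on Cd163, the member that passed the test, and Cbr2, the member with the largest difference, while Mrc1 is the marker most used to define these cells. Each run is the 250 bases upstream of the start, 5′ to 3′ on the gene's strand, from RefSeq (GRCm38.p6), at chr6:124304401-124304650 (plus strand) for Cd163, chr11:120732022-120732271 (minus strand) for Cbr2 and chr2:14229164-14229413 (plus strand) for Mrc1. Capitals mark matches, on either strand, to a core of the site of the myeloid factor PU.1 (GAGGAA), a half-site of the MAF factors (TGCTGA) or an interferon-stimulated response element (GAAA, any 2 bases, GAAA). The 3 motifs share no match in these runs.
Cd163: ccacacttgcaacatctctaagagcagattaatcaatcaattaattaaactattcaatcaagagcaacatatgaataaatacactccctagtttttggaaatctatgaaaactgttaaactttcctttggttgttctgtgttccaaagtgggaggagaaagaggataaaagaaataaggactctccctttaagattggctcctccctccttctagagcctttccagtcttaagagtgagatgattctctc
Cbr2: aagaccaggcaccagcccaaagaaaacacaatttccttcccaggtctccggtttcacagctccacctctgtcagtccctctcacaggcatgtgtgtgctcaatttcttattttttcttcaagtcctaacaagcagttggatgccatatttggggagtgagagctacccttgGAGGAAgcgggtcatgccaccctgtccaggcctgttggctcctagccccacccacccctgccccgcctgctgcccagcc
Mrc1: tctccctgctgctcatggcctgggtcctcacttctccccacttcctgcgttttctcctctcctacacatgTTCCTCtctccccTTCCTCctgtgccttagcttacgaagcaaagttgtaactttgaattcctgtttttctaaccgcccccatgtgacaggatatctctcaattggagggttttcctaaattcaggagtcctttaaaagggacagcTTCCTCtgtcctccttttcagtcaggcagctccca
Mrc1 held 3 matches to the PU.1 core, Cbr2 held 1, and Cd163 held none of the 3 motifs. Over the 8 members with an upstream sequence in the table, 6 held the PU.1 core, 3 the MAF half-site and 0 the interferon element. Some members have more than 1 start site, and counted by sequence the motifs were in 7, 4 and 0 of 11, against 23.3%, 16.1% and 2.98% of all 32851 upstream sequences. A match is a description of letters and does not show binding.

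The arrays were closely alike, with correlations of 0.981 to 0.990 between them and medians of 5.28 to 5.35. All 14 microglial identity genes that had a probe set lay above the 75th percentile of all probe sets (7.05), as did 8 of the 10 border macrophage markers, so the sorted material gave signal for both kinds of transcript. In bulk RNA, fewer cells of a type and less RNA per cell cannot be told apart. Equal values on different arrays were common in the deposited table: 52.5% of the tested genes had the same value on at least 2 of the 9 arrays, and 1.23% had 1 value on all 3 KO arrays. Of the members, 3 had such ties (Cd163, Stab1 and F13a1), and they are given below. How probes were summarised into these values is not stated.

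With all mice in the fit, Cd163 was the only 1 of the 10 markers to pass the test, higher in R47H mice than in CV mice. That result was lost in 5 of the 9 fits that left out 1 mouse, as given below. In R47H minus CV, 1 of the 10 members was called (Benjamini-Hochberg adjusted p under 0.05, limma), against 0.797% of all tested genes, and it was higher in R47H, as 0.380% of all genes were. All 10 members had differences above 0 in that comparison, against 53.4% of all genes, with a median of 0.24 on the log2 scale against 0.01 over all genes, and 5 of 10 had an unadjusted p under 0.05 by limma, against 12.4% of all genes. In CV minus KO, 0 of 10 were called, against 1.21% of all genes. There 9 of 10 members had differences below 0, against 55.0% of all genes, with a median of -0.31 against -0.02 over all genes, and 4 of 10 had an unadjusted p under 0.05 by limma, against 13.2% of all genes. In R47H minus KO, 0 of 10 were called, against 0.0834% of all genes. The median was 0.13 against -0.00 over all genes, with 7 members above 0, where 49.6% of all genes were, and 1 at an unadjusted p under 0.05 (limma), where 5.68% of all genes were. The 3 comparisons share mice, so their signs are not independent of each other.

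**Figure D1:**
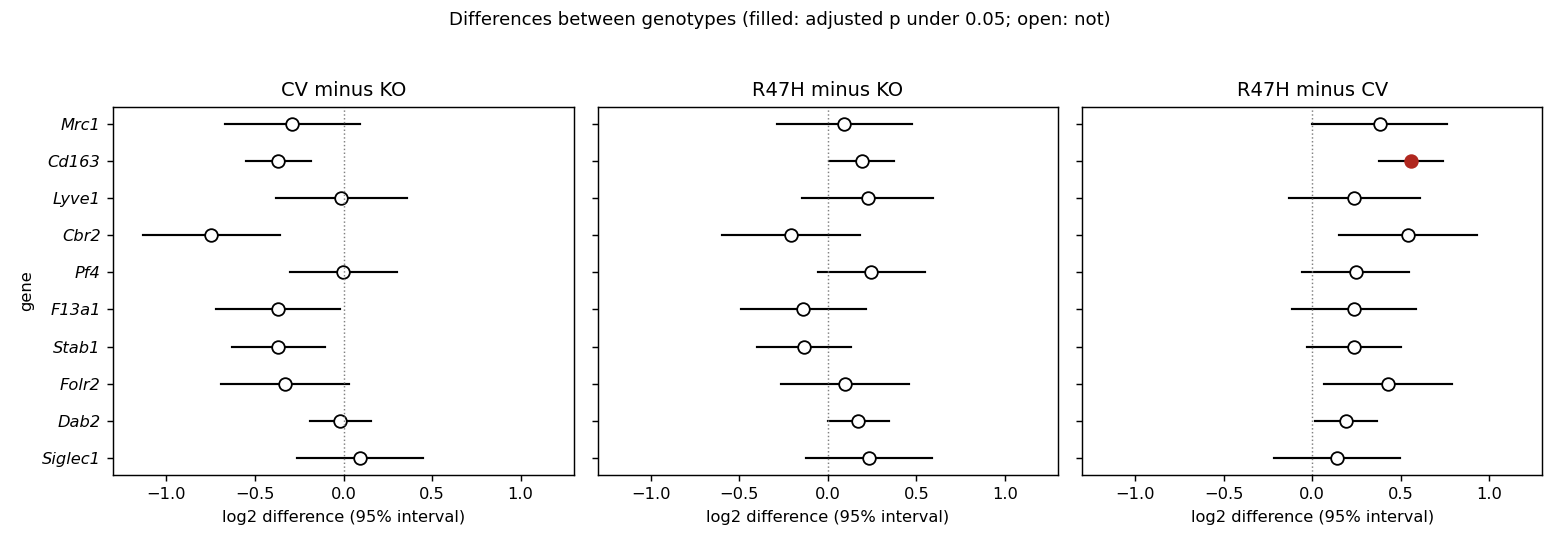
Log2 difference of each marker (x axis) with its 95% interval from the limma model, in CV minus KO, R47H minus KO and R47H minus CV, with genes down the y axis. Filled points passed an adjusted p under 0.05, which Cd163 did in R47H minus CV (0.56), and all 10 points lie right of 0 in that panel.

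The groups were also compared by whether their mice overlapped. In R47H minus CV, 4 members (Cd163, Cbr2, Folr2 and Dab2) had every R47H mouse above every CV mouse, where 8.74% of all genes did. In CV minus KO, 2 members (Cd163 and Cbr2) had every CV mouse below every KO mouse, against 8.05% of all genes. In R47H minus KO, 2 members (Cd163 and Dab2) had every R47H mouse above every KO mouse, against 3.84% of all genes. The differences in R47H minus KO ran from -0.21 for Cbr2 to 0.25 for Pf4, with limma adjusted p of 0.863 and above. Cd163 was the member whose 3 genotypes were fully apart, in the order R47H, KO, CV from high to low.

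**Figure D2:**
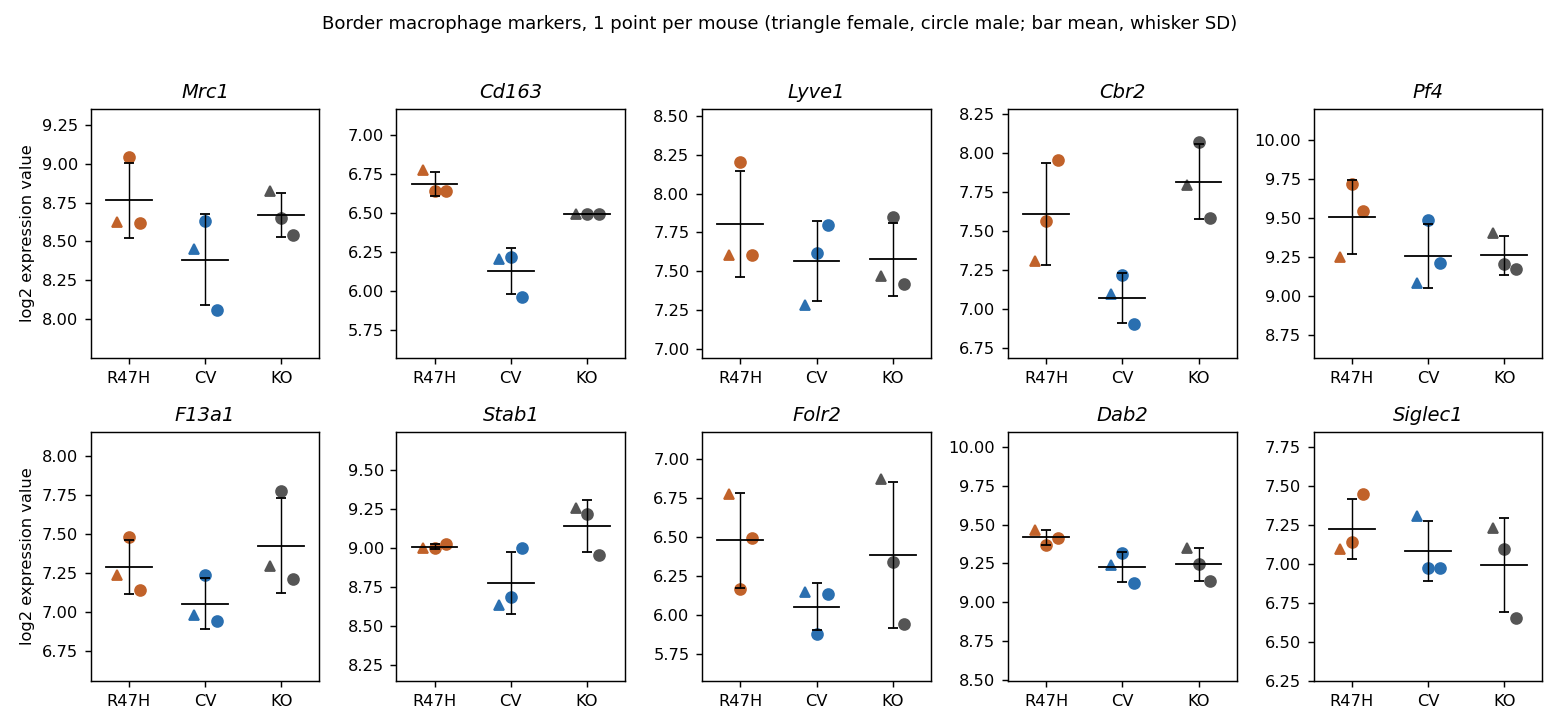
Log2 expression value (y axis, a span of 1.6 in every panel) of each marker in the R47H, CV and KO mice (x axis), 1 point per mouse, with triangles for females and circles for males, and with the mean and SD of each group (n = 3). The CV mice lie lowest for Cd163 and Cbr2, and the 3 KO values of Cd163 coincide at 6.49.

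Among the scavenger receptors, Cd163 read 6.78, 6.64 and 6.64 in R47H mice 1 to 3, 6.21, 6.22 and 5.96 in CV mice, and 6.49 in each KO mouse. No value of one genotype fell within the range of another. It was 1.47-fold higher in R47H than in CV (log2 difference 0.56 ± 0.08 SE, 95% interval 0.38 to 0.74, limma adjusted p = 0.0235). It stood at -0.37 ± 0.08 in CV minus KO (adjusted p = 0.0808, limma), and in R47H minus KO at 0.19 ± 0.08 (adjusted p = 0.863, limma). The 3 KO values were equal to the last digit, so the KO arrays show no spread for this gene. With the R47H and CV arrays alone the difference of 0.56 had a limma adjusted p of 0.0566, and with each probe set tested separately 0.133. Without R47H mouse 1, 2 or 3 the adjusted p for R47H minus CV was 0.152, 0.0729 and 0.105 (limma), and without CV mouse 1 or 3 it was 0.131 and 0.0827.

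The mannose receptor gene Mrc1 read 8.63, 9.04 and 8.62 in R47H mice, 8.45, 8.63 and 8.06 in CV mice, and 8.82, 8.65 and 8.54 in KO mice. CV mouse 3 was the lowest and R47H mouse 2 the highest, and all 3 genotypes overlapped. The difference was 0.38 ± 0.17 in R47H minus CV (limma adjusted p = 0.403) and -0.29 ± 0.17 in CV minus KO (limma adjusted p = 0.516). Without CV mouse 3 the CV minus KO value was -0.12. Stabilin-1, encoded by Stab1, read 9.002, 9.002 and 9.03 in R47H mice, 8.64, 8.69 and 9.002 in CV mice, and 9.26, 9.22 and 8.95 in KO mice. R47H mice 1 and 2 and CV mouse 3 shared a single value. Its difference in CV minus KO was -0.37 ± 0.12 (95% interval -0.63 to -0.10, limma adjusted p = 0.223), and the groups overlapped through CV mouse 3 and KO mouse 3.

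Lyve1, the hyaluronan receptor, read 7.61, 8.20 and 7.61 in R47H mice, 7.29, 7.62 and 7.80 in CV mice, and 7.47, 7.85 and 7.42 in KO mice. The genotypes overlapped, and the difference in CV minus KO was -0.01 with a 95% interval of -0.38 to 0.36. That interval still includes the difference seen for Cd163 (-0.37). The folate receptor gene Folr2 read 6.77, 6.17 and 6.49 in R47H mice, 6.14, 5.88 and 6.13 in CV mice, and 6.87, 6.34 and 5.94 in KO mice. All R47H mice lay above all CV mice, and the KO mice spanned both. It stood at 0.43 ± 0.16 in R47H minus CV (limma adjusted p = 0.32) and at -0.33 ± 0.16 in CV minus KO (limma adjusted p = 0.425).

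Siglec1, the sialic acid-binding receptor also known as sialoadhesin, read 7.09, 7.14 and 7.45 in R47H mice, 7.31, 6.98 and 6.97 in CV mice, and 7.23, 7.09 and 6.65 in KO mice. The genotypes overlapped and no difference passed (smallest limma adjusted p = 0.778, in R47H minus CV). R47H mouse 3, the highest for Siglec1, also had the highest mean over the 17 interferon response genes with a probe set. That mean was 7.46, 6.96 and 8.20 in R47H mice, 7.15, 6.84 and 7.38 in CV mice, and 7.48, 7.12 and 7.18 in KO mice. Without R47H mouse 3 the Siglec1 difference in R47H minus CV was -0.01, against 0.14 with all mice. Of the interferon genes 16 were tested and 0 passed in any genotype comparison (limma, with 0, 0 and 2 at an unadjusted p under 0.05 in CV minus KO, R47H minus KO and R47H minus CV). In that order 1.21%, 0.0834% and 0.797% of all genes passed, and 13.2%, 5.68% and 12.4% had an unadjusted p under 0.05 (limma). The medians of the interferon genes were -0.17, 0.28 and 0.46. Ifit2, an interferon-induced inhibitor of translation, had the smallest p among them in both R47H comparisons, at 0.92 ± 0.31 in R47H minus CV (limma adjusted p = 0.281). The part of the interferon genes in the Siglec1 values was not tested.

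The endocytic adaptor Dab2 read 9.47, 9.37 and 9.41 in R47H mice, 9.24, 9.31 and 9.12 in CV mice, and 9.35, 9.25 and 9.14 in KO mice. R47H mice lay above the others, by 0.19 ± 0.08 against CV (limma adjusted p = 0.358) and 0.17 ± 0.08 against KO (limma adjusted p = 0.87), and neither difference passed. Between CV and KO the difference was -0.02 (95% interval -0.19 to 0.15).

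Cbr2, the carbonyl reductase, had the largest difference among the members. It read 7.31, 7.56 and 7.96 in R47H mice, 7.09, 7.22 and 6.90 in CV mice, and 7.80, 8.07 and 7.58 in KO mice. Every CV mouse lay below every other mouse. It stood at -0.75 ± 0.17 in CV minus KO (95% interval -1.13 to -0.36, limma adjusted p = 0.0935), which is 1.68-fold lower in CV, and in R47H minus CV at 0.54 ± 0.17 (limma adjusted p = 0.256). Neither passed with all mice. Without KO mouse 3 the CV minus KO difference was -0.90 and passed (limma adjusted p = 0.0466). That fit called 172 of all genes in CV minus KO, against 131 with all mice. It was the 1 fit of the 9 leaving out a mouse in which Cbr2 passed. Over those fits the difference ran from -0.90 to -0.63, with limma adjusted p up to 0.305.

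For the secreted proteins no difference passed. Pf4 read 9.25, 9.72 and 9.54 in R47H mice, 9.08, 9.48 and 9.21 in CV mice, and 9.40, 9.20 and 9.17 in KO mice. CV and KO had the same mean, 9.26 (SD 0.21 in CV and 0.13 in KO, n = 3 each), with a 95% interval of the difference from -0.30 to 0.30. R47H mice 2 and 3 were the highest, and the difference was 0.25 ± 0.13 both in R47H minus CV and in R47H minus KO (limma adjusted p = 0.507 and 0.907). F13a1 read 7.24, 7.48 and 7.14 in R47H mice, 6.98, 7.24 and 6.94 in CV mice, and 7.29, 7.77 and 7.21 in KO mice. R47H mouse 1 and CV mouse 2 shared a value, KO mouse 2 was the highest, and CV minus KO stood at -0.37 ± 0.15 (limma adjusted p = 0.347). Of the 9 platelet and megakaryocyte genes with a probe set, 5 averaged above the filter and 4 below it. Ppbp, the chemokine stored with Pf4 in platelets, read 2.81 to 3.22 over all mice and Itga2b, the platelet integrin, 5.00 to 5.37, so both averaged below. Gp9, a subunit of the platelet receptor for von Willebrand factor, averaged above it (7.14 to 8.19), as did Itgb3 (7.30 to 7.78), Thbs1, Treml1 and Tubb1.

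Further genes known from border macrophages did not share 1 direction. Of 28 listed, 26 had a probe set and 19 were tested. In CV minus KO, 2 rose and 1 fell, against 0.954% and 0.259% of all genes. There 13 of the 19 differences were above 0 (median 0.19), against 4856 of all 10795 genes. At an unadjusted p under 0.05 (limma) were 12 of the 19, against 13.2% of all genes. In R47H minus KO, 0 passed (limma, 5 at an unadjusted p under 0.05, median 0.17), against 0.0834% and 5.68% of all genes. In R47H minus CV 2 rose and 0 fell (median -0.03), against 0.380% and 0.417% of all genes. There 7 of the 19 had an unadjusted p under 0.05 (limma), against 12.4% of all genes. The genes Cd209b, Cd209d, Clec10a, Mgl2, Ednrb, Timd4 and Vsig4 averaged below the filter and were not tested.

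Slc40a1, which encodes the iron exporter ferroportin, was lowest in CV mice, as Cd163 was. It read 7.83, 8.01 and 8.10 in R47H mice, 7.37, 7.55 and 7.51 in CV mice, and 7.83, 8.01 and 8.02 in KO mice. CV mice lay below all others, by -0.48 ± 0.06 in CV minus KO (limma adjusted p = 0.00848), a call that held without any 1 array (adjusted p up to 0.0499). It was lost with no sex term (limma adjusted p = 0.0598), with the CV and KO arrays alone (0.0517) and with each probe set tested separately (0.0613). In R47H minus CV it stood at 0.50 ± 0.06 (limma adjusted p = 0.0134). That call was lost without R47H mouse 1 or 3 or any CV mouse (adjusted p = 0.056 to 0.0847), with no sex term (0.0531) and with separate probe sets (0.0776). With the neutrophil mean as a covariate neither passed (limma adjusted p = 0.11 and 0.23), at much the same sizes, -0.49 and 0.52. The chemokine gene Ccl8 read 7.32, 7.07 and 6.94 in R47H mice, 5.72, 5.89 and 5.65 in CV mice, and 6.81, 7.23 and 6.25 in KO mice. CV mice were the lowest here too, and R47H minus CV stood at 1.35 ± 0.22, or 2.55-fold higher in R47H (limma adjusted p = 0.0346). It missed the threshold without KO mouse 1, any R47H mouse or any CV mouse (adjusted p = 0.0637 to 0.186), with no filter (0.0665) and with separate probe sets (0.226), and stood at 0.82 with the neutrophil covariate (limma adjusted p = 0.419).

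Ms4a7, a membrane protein gene used to tell border macrophages from microglia, was highest in CV mice. It read 7.83, 7.39 and 7.59 in R47H mice, 7.99, 7.92 and 8.17 in CV mice, and 7.20, 6.95 and 7.48 in KO mice. CV mice lay above all others, by 0.82 ± 0.15 in CV minus KO (limma adjusted p = 0.0423). The call was lost without any 1 array other than KO mouse 3 (adjusted p = 0.0556 to 0.187), with no filter (0.0788), with the CV and KO arrays alone (0.125) and with separate probe sets (0.239). With the neutrophil mean as a covariate the value was 0.52 (limma adjusted p = 0.428). Wfdc17, a small secreted protein gene, read 9.59, 9.34 and 9.21 in R47H mice, 9.79, 9.51 and 9.95 in CV mice, and 9.05, 8.79 and 8.996 in KO mice. It stood at 0.81 ± 0.12 in CV minus KO (limma adjusted p = 0.0164), and at adjusted p = 0.0955, 0.0771 and 0.063 without KO mouse 1, KO mouse 2 and CV mouse 1, and 0.246 with the neutrophil covariate. With the CV and KO arrays alone it was 0.0935 (limma adjusted p), and with separate probe sets 0.144. In R47H minus KO, Wfdc17 stood at 0.44 ± 0.12 and Ms4a7 at 0.40 ± 0.15, and neither passed (limma adjusted p = 0.451 and 0.793). Among genes that did not pass, Ltc4s, the leukotriene C4 synthase gene, stood at 0.40 ± 0.09 in R47H minus CV (limma adjusted p = 0.118). The ferroxidase gene Cp stood at 0.26 ± 0.07 in R47H minus KO (limma adjusted p = 0.451).

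**Figure D3:**
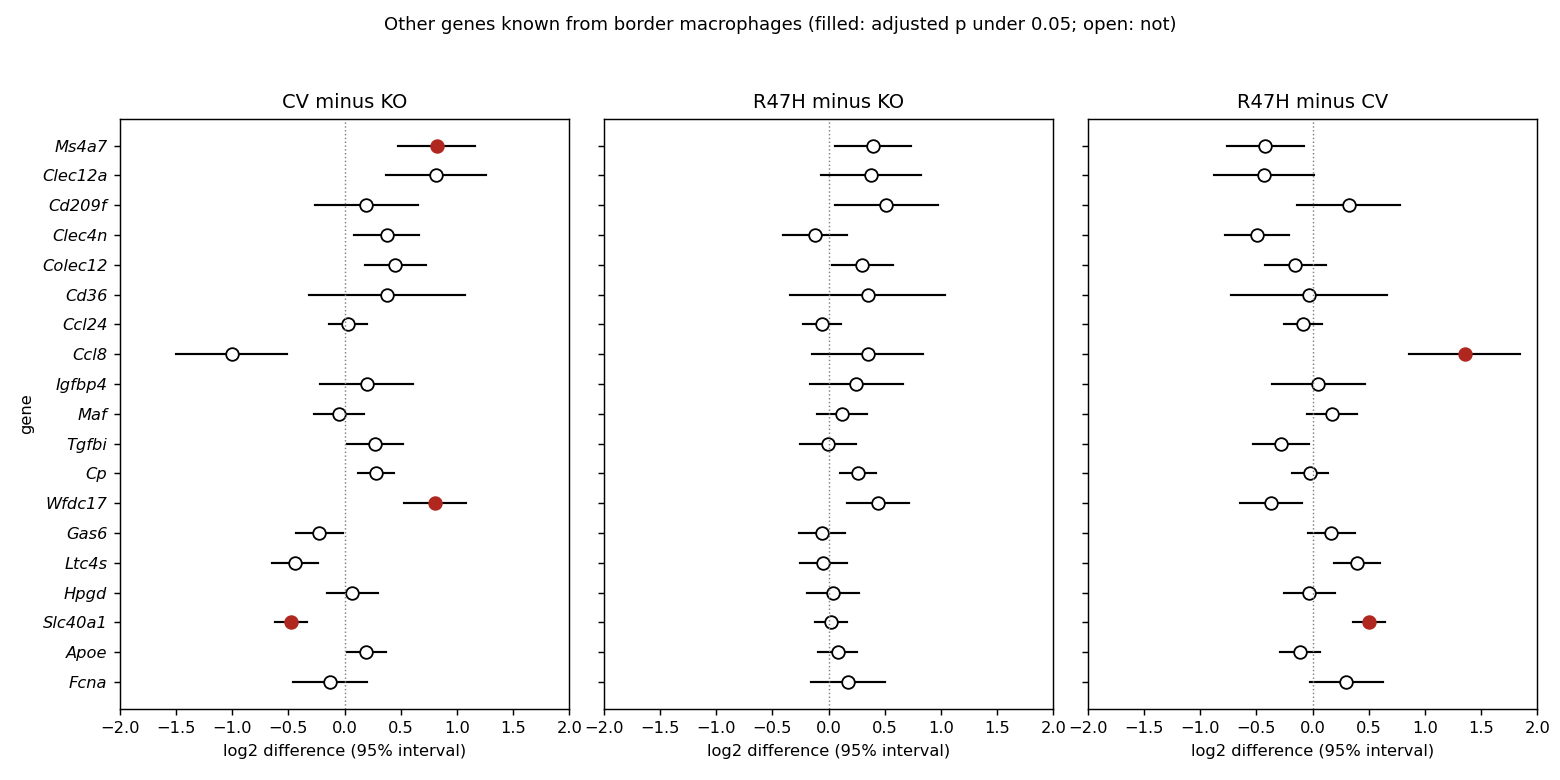
Log2 difference with its 95% interval (x axis) for the 19 tested genes known from border macrophages beyond the 10 markers (y axis), in the same 3 comparisons, with filled points at an adjusted p under 0.05. Ms4a7 and Wfdc17 lie right of 0 and Slc40a1 left of 0 in CV minus KO, and Slc40a1 and Ccl8 lie right of 0 in R47H minus CV.

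Relatives and partners of the 10 markers were read from a list of 22 genes, of which 21 had a probe set and 12 were tested. In CV minus KO 1 rose and 0 fell (median -0.07), against 0.954% and 0.259% of all genes. There 5 of the 12 had an unadjusted p under 0.05 (limma), against 13.2% of all genes. In R47H minus KO 0 passed (limma, 2 at an unadjusted p under 0.05), against 0.0834% and 5.68% of all genes. In R47H minus CV 1 rose and 1 fell, against 0.380% and 0.417% of all genes, and 4 of the 12 had an unadjusted p under 0.05 (limma), against 12.4%. Cd44, the other main hyaluronan receptor beside Lyve1, read 6.34, 5.91 and 6.06 in R47H mice, 7.53, 7.23 and 7.22 in CV mice, and 5.96, 5.29 and 6.17 in KO mice. CV mice stood clear above the rest, by 1.52 ± 0.19 in CV minus KO (limma adjusted p = 0.00617), which held without any 1 array (adjusted p up to 0.0487) and, at 1.03, with the neutrophil covariate (limma adjusted p = 0.0137). It was lost with the CV and KO arrays alone (limma adjusted p = 0.0639) and with each probe set tested separately (limma adjusted p = 0.0866). R47H minus CV stood at -1.22 ± 0.19 (limma adjusted p = 0.0307), lost without KO mouse 1, any R47H mouse or any CV mouse (adjusted p = 0.0535 to 0.163), with no filter (0.0568) and with separate probe sets (0.205). With the neutrophil mean as a covariate that value was -0.70 (limma adjusted p = 0.16).

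Mrc2, the collagen-binding relative of Mrc1, read 7.59, 7.23 and 7.15 in R47H mice, 7.13, 6.60 and 6.59 in CV mice, and 7.24, 7.12 and 6.96 in KO mice. It was higher in R47H than in CV by 0.55 ± 0.09 (limma adjusted p = 0.0342), and missed the threshold without any 1 R47H or CV mouse (adjusted p = 0.0847 to 0.172). It also missed it with no sex term (limma adjusted p = 0.3), no filter (0.0572), the stricter filter (0.0531), separate probe sets (0.176) and the neutrophil covariate (difference 0.51, limma adjusted p = 0.515). The genes of haem breakdown that act after uptake by Cd163 did not pass: Blvrb, a biliverdin reductase gene, stood at 0.40 ± 0.13 in CV minus KO (limma adjusted p = 0.256), and Hmox1, haem oxygenase 1, at -0.04 ± 0.08 (limma adjusted p = 0.878). Blvrb averaged 8.54 in R47H mice and 8.80 in CV mice, lower in R47H where Cd163 was higher. Hmox1 averaged 10.04 in R47H mice and 10.05 in CV mice. Cbr3, a relative of Cbr2, stood at 0.31 ± 0.11 in R47H minus CV (limma adjusted p = 0.297) and 0.32 ± 0.11 in R47H minus KO (limma adjusted p = 0.681). The relatives Stab2, Folr1, Ly75, Pla2r1, Cd163l1, F13b and Dab1 averaged below the filter, as did Lrp2, a receptor that uses Dab2.

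Neutrophil genes read higher in CV mice and in KO mouse 3, although 0 of the 9 tested passed in any genotype comparison (limma). At an unadjusted p under 0.05 (limma) were 9 of 9 in CV minus KO, 9 of 9 in R47H minus CV and 0 in R47H minus KO. Over all genes the shares at that level were 13.2%, 12.4% and 5.68%, and the shares called were 1.21%, 0.797% and 0.0834%. The smallest limma adjusted p was 0.208 in CV minus KO and 0.215 in R47H minus CV. The mean over the 12 neutrophil genes was 6.11 to 7.13 in R47H mice, 8.12 to 8.87 in CV mice, and 5.50, 5.90 and 8.85 in KO mice 1 to 3. S100a8, a calprotectin subunit of neutrophils, read 9.22 to 11.28 in R47H mice, 12.22 to 12.83 in CV mice, and 7.84, 9.37 and 12.74 in KO mice. KO mouse 3 thus read like the CV mice for neutrophil genes. It also had the lowest mean over the 10 markers among KO mice, at 7.71, below the other KO mice at 7.99 and above. R47H mice lay at 7.91 to 8.03 and CV mice at 7.61 to 7.73. For the microglial identity genes, KO mouse 3 had the highest mean of all 9 mice, at 11.56. KO mice 1 and 2 stood at 11.43 and 11.48 there.

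With the neutrophil mean as a covariate, a setting chosen after the data were seen, the members' median in CV minus KO was -0.07, with 6 of 10 below 0. The median in R47H minus CV was 0.12, with 7 of 10 above 0, and 0 members passed in any comparison (limma). Over all tested genes this fit called 22 in CV minus KO, against 131 without the covariate. In R47H minus CV it called 9, against 86, and in R47H minus KO 15, against 9. With so few calls over all genes, the count of 0 does not set the members apart. Cd163 stood at 0.59 ± 0.12 in R47H minus CV, no longer called (limma adjusted p = 0.304), and at -0.40 ± 0.12 in CV minus KO. The covariate varied most within KO (SD 1.83, against 0.51 in R47H and 0.38 in CV), where the Cd163 values are tied, so this fit says little about Cd163. Cbr2 stood at -0.52 ± 0.22 in CV minus KO. Without KO mouse 3, and with no covariate, the median in CV minus KO was -0.35 with 10 of 10 below 0. The neutrophil mean was 8.12 to 8.87 in CV mice and 6.11 to 7.13 in R47H mice, and KO mice reached the CV range through KO mouse 3 alone. The covariate fit therefore cannot tell neutrophil signal and genotype apart for any member.

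Genes of microglial identity had lower values in CV too, with 14 of 14 differences below 0 in CV minus KO (55.0% of all genes) and a median of -0.20. In R47H minus CV, 13 of 14 were above 0 (53.4% of all genes), with a median of 0.15. Every CV mouse lay below every KO mouse for 11 of 14, against 8.05% of all genes. Every R47H mouse lay above every CV mouse for 8 of 14, against 8.74% of all genes. Of the 14 genes, 1 was called lower in CV minus KO, against 0.259% of all genes. It was Crybb1, a crystallin gene typical of microglia (-1.02 ± 0.11, limma adjusted p = 0.00402), named after its values were seen. The same gene was called higher in R47H minus CV (0.72, limma adjusted p = 0.0284), against 0.380% of all genes. The mean of the 14 genes ran from 11.36 to 11.45 in R47H mice, from 11.18 to 11.28 in CV mice, and from 11.43 to 11.56 in KO mice. The monocyte mean was 5.57 to 5.72 in R47H mice, 6.56 to 6.91 in CV mice, and 5.58, 5.52 and 6.46 in KO mice. Of the 8 monocyte genes tested, 1 rose in CV minus KO and 1 fell in R47H minus CV (limma), against 0.954% and 0.417% of all genes. Fn1, the gene called in CV minus KO (2.20 ± 0.15, limma adjusted p = 0.000512), read 5.24 in KO mouse 3 and 6.96 to 7.65 in CV mice. Oligodendrocyte genes averaged 6.86 to 7.25 in R47H mice, 5.77 to 6.09 in CV mice and 5.76 to 6.50 in KO mice, and astrocyte genes averaged up to 6.34 in R47H mice, 5.45 in CV mice and 5.77 in KO mice. Of the 7 oligodendrocyte genes tested, 5 rose in R47H minus CV (limma), against 0.380% of all genes. In R47H minus KO 1 rose, where 0.0834% of all genes were called. In CV minus KO 0 passed (limma, 1 at an unadjusted p under 0.05), against 1.21% and 13.2% of all genes. Of the 4 astrocyte genes tested, 1 rose in R47H minus CV (limma), against 0.380% of all genes. Mbp, a myelin protein gene, averaged 8.21 in R47H mice, 7.07 in CV mice and 7.67 in KO mice. Platelet and megakaryocyte genes averaged 5.75 to 5.77 in R47H mice, 5.81 to 5.96 in CV mice and 5.77 to 5.92 in KO mice. The part of these cells in the values of the markers was not tested.

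**Figure D4:**
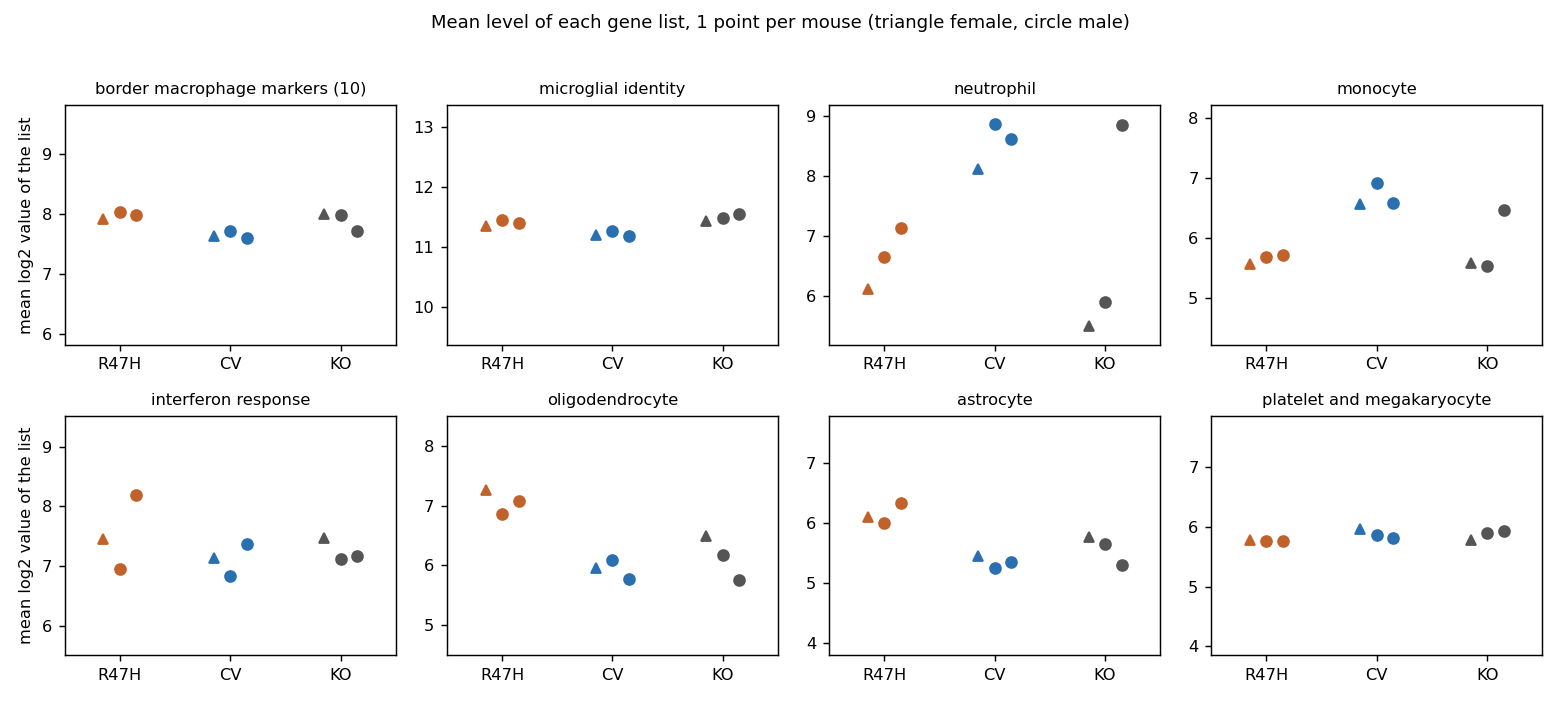
Mean log2 value (y axis, a span of 4 in every panel) of 8 gene lists in the R47H, CV and KO mice (x axis), 1 point per mouse, with triangles for females and circles for males. The neutrophil and monocyte list means are high in the CV mice and in KO mouse 3. The oligodendrocyte mean is highest in R47H mice, and the mean of the 10 border macrophage markers spans 7.61 to 8.03.

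Genes of the vessel and meningeal cells that border macrophages adjoin had low values. Over all 9 mice the list means ran from 4.52 to 4.71 for lymphatic endothelium, 4.40 to 4.60 for blood endothelium, 4.73 to 4.91 for fibroblasts and 4.50 to 4.64 for mural cells. Of these lists 4 of 5, 7 of 9, 4 of 7 and 5 of 6 genes averaged below the filter, among them Flt4, a receptor of lymphatic endothelium, Cldn5 and Cdh5, junction proteins of blood endothelium, Pdgfra of fibroblasts and Pdgfrb of mural cells. Prox1, the lymphatic transcription factor, averaged above it (6.42 to 6.65), as did the collagen genes Col1a1 (6.08 to 6.36) and Col3a1 (5.62 to 5.77). Dendritic cell genes averaged 4.86 to 5.03 and lymphocyte genes 4.50 to 4.87. Of the 2 lymphocyte genes tested, Cd79b fell in CV minus KO (-0.65 ± 0.11, limma adjusted p = 0.0269), against 0.259% of all genes.

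No marker passed the test for sex, 0 of 10 in female minus male (limma, 1 at an unadjusted p under 0.05), against 0.0648% and 11.0% of all genes. That member was Folr2, highest in the female of each genotype, at 0.44 ± 0.14 (limma adjusted p = 0.316). Lyve1 stood at -0.29 ± 0.14 (limma adjusted p = 0.495), and KO mouse 3, a male, lay below the KO female.

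Within genotypes the markers varied together only in part. After each gene was centred on its genotype means, 33 of the 45 pairs of members correlated above 0 over the 9 mice, with a median r of 0.19 and a range of -0.68 to 0.69. Of the 107850 pairs between a member and any other tested gene, 55825 correlated above 0, with a median r of 0.02. Pairs above 0.5 made up 22.2% of member pairs, against 14.3% of pairs between a member and any other tested gene. Lyve1 with F13a1 (0.69), Mrc1 with Pf4 (0.67) and Cd163 with Dab2 (0.66) had the highest coefficients, and Cd163 with Stab1 (-0.68) the lowest. With 9 mice in 3 groups these coefficients are coarse and rest on shared arrays, so they are given as a description.

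The 5 genes most like Mrc1 by the same measure were Mst1 (0.98), Med17 (0.97), Kif13a (0.97), Cd247 (0.96) and Dynll1 (0.96), and those most like Pf4 were Cdc26 (0.97), Pln (0.96), Timm8a1 (0.95), Tbl1x (0.95) and Ywhae (0.93). The markers themselves were left out of this ranking, so it does not show whether they track each other. Mrc1 with Pf4 stood at 0.67, the highest coefficient of either gene with another marker. None of the further genes known from border macrophages was among the genes named here. These genes were picked as the top of 10362 genes over 9 mice, and the coefficients carry no test.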

How the data were processed

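Each mouse gave 1 array, hybridised with biotinylated cRNA made from 2 ng of RNA, per the labels' protocols. The authors deposited 1 log2 value per probe set and array (35556 probe sets). The log2 scale was read from the range of the values (1.31 to 13.9), and no label or header names the background correction, normalization or summary method. The platform annotation gave 1 symbol for 21789 probe sets, several for 1621 and none for 12146. The brightest single-symbol probe set stood for a gene, and genes whose mean reached the probe sets' median (5.31) were tested. Linear models with genotype and sex were fitted to all 9 arrays with limma 3.58.1 in R 4.3.3 (lmFit, eBayes; 5 residual and 3.73 prior degrees of freedom), two-sided, with Benjamini-Hochberg adjustment over 10795 genes and a threshold of 0.05. The script was first tested on simulated data. Errors are standard errors of the model or SDs over 3 mice, and the number of arrays limits the precision. With 3 mice against 3, an exact permutation test cannot go below 0.1.

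The 10 members and the 16 gene lists, members included, were chosen with earlier results of these data known. Genes named beyond the members came from those called in a genotype comparison or with the 3 smallest p per comparison in the lists of further border macrophage, partner and interferon genes. The rule also covered the 2 brightest genes of each cell type list, of which only some are named, and the 5 genes most like Mrc1 and Pf4. Crybb1, Fn1, Thbs1, Treml1, Tubb1 and a few genes below the filter were chosen after their values were seen. Alternatives covered the filter, covariates, arrays fitted, normalization, probe set choice, variance model and each array left out.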

Additional observations from a re-analysis of the deposited data

How the results depend on the processing

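With every array in the fit, the counts of called markers in CV minus KO, R47H minus KO and female minus male (0 each) were the same under all alternatives run. In R47H minus CV the count of 1, Cd163, was 0 with the stricter filter, which leaves Cd163 out, 0 with the compared groups alone, 0 with each probe set tested separately, which adjusts over more tests, and 0 with the neutrophil mean as a covariate. Leaving out single arrays gave 0 to 1 called markers in CV minus KO, 0 to 1 in R47H minus CV, and 0 in the other comparisons. The cause of the lost calls was not tested otherwise. Mouse numbers did not meet the rule for pairing: deviations of same-numbered mice correlated at -0.04 to 0.36 (median 0.20, against -0.16 for different-numbered mice), not all above 0.1, and a mouse number also carries the sex. With the replicate block in place of sex (a fit that pairs mice by number), Cd163 stood at adjusted p = 0.0277 in R47H minus CV, and no count of markers changed.

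Directions turned for 13 results, none of them called and none above 0.24 in size with all arrays. With the mean of a gene's probe sets Dab2 stood at 0.020 in CV minus KO, and with arrays centred on their medians Stab1 stood at 0.018 in female minus male. With the neutrophil covariate Lyve1, Pf4 and Dab2 stood at 0.30, 0.12 and 0.044 in CV minus KO. There Lyve1, F13a1 and Siglec1 stood at -0.098, -0.073 and -0.12 in R47H minus CV, and Mrc1 at -0.026 in female minus male. Over single removals, CV minus KO ran from -0.15 to 0.081 for Lyve1, -0.098 to 0.18 for Pf4, -0.082 to 0.021 for Dab2 and -0.063 to 0.19 for Siglec1. R47H minus KO ran from -0.067 to 0.22 for Mrc1, -0.28 to 0.029 for F13a1 and -0.066 to 0.24 for Folr2, and R47H minus CV from -0.0092 to 0.32 for Siglec1. Female minus male ran from -0.050 to 0.17 for Mrc1, -0.24 to 0.0015 for Cbr2 and -0.11 to 0.080 for Stab1.

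Over all 10795 genes, 131 were called in CV minus KO (59 to 172 without single arrays, 18 to 153 under the other alternatives), 9 in R47H minus KO (0 to 7 and 0 to 15), 86 in R47H minus CV (9 to 132 and 5 to 96) and 7 in female minus male (3 to 5 and 3 to 9). The 3 mice a genotype limit the precision, arrays give no depth, and signal over background was not used here.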
